A study of Mus musculus with 7 samples.

Results

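The integrated stress response and the unfolded protein response were followed through 39 genes, out of 52224 in the deposited table, in cultured mouse haematopoietic stem cells given a drug that disturbs DNA replication. The members were the rows whose symbol stood on a fixed list, and all 39 were found and passed the filter on low values. They formed an ATF4 arm of 19 genes and an endoplasmic reticulum (ER) chaperone arm of 20 genes, which are reported apart. The cells were wild-type C57BL/6J bone marrow cells, sorted as CD48-CD150+LSK, and each group spent 48 h in culture. One group received gemcitabine (Gem) at 0.5 µM in 2 libraries, another hydroxyurea (HU) at 100 µM in 2 libraries, and the third only DMSO in 3 libraries. Gemcitabine mimics deoxycytidine and stops DNA synthesis once incorporated, and hydroxyurea starves replication of nucleotides by blocking ribonucleotide reductase. Whether replicate libraries stem from different animals or culture wells is not stated in the labels, so p-values reflect library-to-library spread that could be purely technical.

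In the integrated stress response, kinases such as PERK and GCN2 phosphorylate the initiation factor eIF2, which lowers general protein synthesis while the transcription factor ATF4 is translated more. ATF4 then switches on genes of amino acid synthesis and uptake. In the unfolded protein response, the sensors IRE1, ATF6 and PERK in the ER membrane answer misfolded protein and raise chaperones and degradation factors, in part through the transcription factor XBP1. Blood stem cells are known for low protein synthesis and for sensitivity to protein folding stress. Because ATF4 is controlled mainly in translation and XBP1 by splicing of its messenger RNA, gene-level RNA values measure neither protein.

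Both arms have known promoter elements, and the RefSeq promoter windows (GRCm38.p6, 250 bases before to 50 after the gene start) held 33 of the 39 members. The ER stress element ERSE was searched on both strands as CCAAT, then 9 bases of any kind, then CCACG. It occurred in 7 of 17 ER chaperone promoters (41.18%), in 0 of 16 ATF4 arm promoters and in 35 of all 27025 promoters (0.1295%). These matches are shown because the genes that carry them differed in how much they changed. Each is written along the motif, with the fixed letters in capitals.
Hspa5, chr2:34772025-34772043: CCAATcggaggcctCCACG
Canx, chr11:50325800-50325818: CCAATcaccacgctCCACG
Hsp90b1, match nearer the start, chr10:86705533-86705551: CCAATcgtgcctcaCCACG
Hsp90b1, match farther from the start, chr10:86705638-86705656: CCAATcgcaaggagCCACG
Calr, chr8:84847075-84847093: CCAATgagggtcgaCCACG
Pdia6, chr12:17266491-17266509: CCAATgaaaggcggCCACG
Creld2, chr15:88819520-88819538: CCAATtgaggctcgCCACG
Dnajc3, chr14:118937827-118937845: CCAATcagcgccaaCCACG

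The related element ERSE-II, searched on both strands as ATTGG, any 1 base, then CCACG, occurred in Herpud1 and Dnajb11, which is 2 of 17 ER chaperone promoters (11.76%) and 0 of 16 ATF4 arm promoters, against 10 of all promoters (0.037%). The C/EBP-ATF response element CARE, at which ATF4 binds, was searched as TGATGNAA on both strands. It occurred in Asns, Chac1, Nupr1 and Trib3, which is 4 of 16 ATF4 arm promoters (25%), in Herpud1 as 1 of 17 ER chaperone promoters (5.882%), and in 1096 of all promoters (4.056%). No match overlapped another among the members. A match is a description of letters only.

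The whole promoter windows of Hspa5 and Canx are shown because both carry an ERSE, while their RNA changed by different amounts. The ERSE is in capitals, and it lay 65 to 47 bases before the start in Hspa5 and 145 to 127 bases before it in Canx.
Hspa5, chr2:34771840-34772139, plus strand: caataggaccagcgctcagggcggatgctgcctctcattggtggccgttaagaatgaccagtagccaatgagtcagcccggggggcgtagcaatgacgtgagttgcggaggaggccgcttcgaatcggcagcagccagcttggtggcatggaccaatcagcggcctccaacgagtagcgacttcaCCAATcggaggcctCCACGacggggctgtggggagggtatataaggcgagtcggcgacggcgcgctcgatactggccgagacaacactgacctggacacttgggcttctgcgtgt
Canx, chr11:50325624-50325923, minus strand: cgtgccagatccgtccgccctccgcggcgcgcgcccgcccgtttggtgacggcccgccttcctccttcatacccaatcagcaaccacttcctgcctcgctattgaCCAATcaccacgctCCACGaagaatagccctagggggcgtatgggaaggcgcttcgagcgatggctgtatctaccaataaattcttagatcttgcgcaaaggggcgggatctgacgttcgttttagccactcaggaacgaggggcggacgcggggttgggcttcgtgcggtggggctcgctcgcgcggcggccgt

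Values are FPKM (fragment counts per unit of transcript length and of mapped reads) as the authors deposited them, and the sequencing depth is unknown. In these units the drug libraries lay lower as a whole. The FPKM of all genes summed to 703016 and 729258 in Gem, 647760 and 651315 in HU and 818775 to 832979 in DMSO. Of 1766 olfactory and vomeronasal receptor genes, few of which are known to act in blood cells, 955 and 1031 were above 0 in Gem. The numbers were 1182 and 1204 in HU and 373 to 400 in DMSO. Across the 13865 tested genes the median log2 change was -0.25 in Gem and -0.30 in HU. Trimmed-mean scaling of the libraries put it at 0.011 in Gem and 0.019 in HU, so changes are given as deposited and after that scaling. In bulk RNA, fewer cells of a type and less RNA per cell cannot be told apart. The 10 stem cell markers summed to 97.2 and 107 FPKM in Gem, 90.4 and 95.0 in HU and 143 to 154 in DMSO. The 10 granulocyte and monocyte markers summed to 47908 and 49659 FPKM in Gem, 44545 and 48043 in HU and 39015 to 43614 in DMSO. Yet as deposited 8 of these 10 had a negative log2 change and 2 a positive one in each drug. Their median change was -0.25 in Gem and -0.52 in HU, so the higher sums do not describe most of them. The 9 plasma cell markers, from a cell type rich in ER chaperones, summed to 97.9 and 107 FPKM in Gem, 91.8 and 96.7 in HU and 106 to 170 in DMSO, with Mzb1 at 0 in both Gem libraries. The 8 mast cell and basophil markers summed to 220.5 and 403 FPKM in Gem, 200.2 and 205 in HU and 283 to 1358 in DMSO, with Cma1 at 0 in every drug library. The 7 megakaryocyte markers summed to 1691 and 1794 FPKM in Gem, 1342 and 1536 in HU and 1724 to 2795 in DMSO, and the 8 erythroid markers to 26.7 and 33.2 in Gem, 34.9 and 35.0 in HU and 53.2 to 99.2 in DMSO. The part of these shifts in the results was not tested.

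In DMSO the members spanned a wide range of levels, from 2.33 FPKM for Slc7a5, the light chain of a large neutral amino acid transporter, to 425 FPKM for Hspa5, which encodes the ER chaperone BiP. Hspa5 ranked 268th among all genes by mean FPKM. It was followed by Slc3a2, the transporter's heavy chain, at 376 FPKM, by the disulfide isomerase Pdia3 at 340.1 FPKM and by the lectin chaperone Canx (calnexin) at 310.3 FPKM. The heavy chain thus stood far above the light chain. The stress sensors were low, with Ern1 (IRE1) at 18.02, Atf6 at 9.32, Eif2ak3 (PERK) at 6.26 and Eif2ak4 (GCN2) at 4.51 FPKM. Among the effectors Xbp1 stood at 229.8, Atf4 at 141 and Ddit3 (CHOP) at 36.6 FPKM.

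Gem and HU against DMSO ask whether these stress genes differed after 48 h with either drug, and both contrasts share the 3 DMSO libraries. Neither drug raised a member as deposited. In limma 24 of 39 members fell in Gem and 28 of 39 in HU at a Benjamini-Hochberg adjusted p below 0.05, and 0 rose in either (0 also at an unadjusted p under 0.05). Over all genes tested, 23.2% fell and 1.5% rose in Gem, and 35.5% fell and 4.46% rose in HU. After scaling 0 of 39 passed in Gem (limma), where 0.469% of all genes were called lower and 0.483% higher at the adjusted threshold. At an unadjusted p under 0.05 (limma) 8 members were lower and 1 higher. In HU 3 of 39 fell after scaling, Atf4, Ddit3 and Canx, and 0 rose (limma, 0 also unadjusted), where 5.27% of all genes were called lower and 4.75% higher. In Gem 10 members passed without DMSO 1 and 14 without DMSO 2 (limma), where all genes called fell from 3421 to 1499 and 2115. Leaving out Gem 1, Gem 2 or HU 1 leaves 1 library in its group. Fewer members and fewer genes in all passed in that group's contrast with DMSO then. Once changes were also corrected for each gene's length and level, a step added after the data were seen, 0 of 39 passed in Gem (limma, 5 lower and 2 higher at an unadjusted p under 0.05) and 0 of 39 in HU (4 lower and 4 higher). At the adjusted threshold that correction called 0.149% of all genes lower and 0.29% higher in Gem, and 1.06% lower and 0.997% higher in HU. For the unadjusted counts after scaling or correction no share of all genes is given, so they are not read as an excess.

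**Figure D1:**
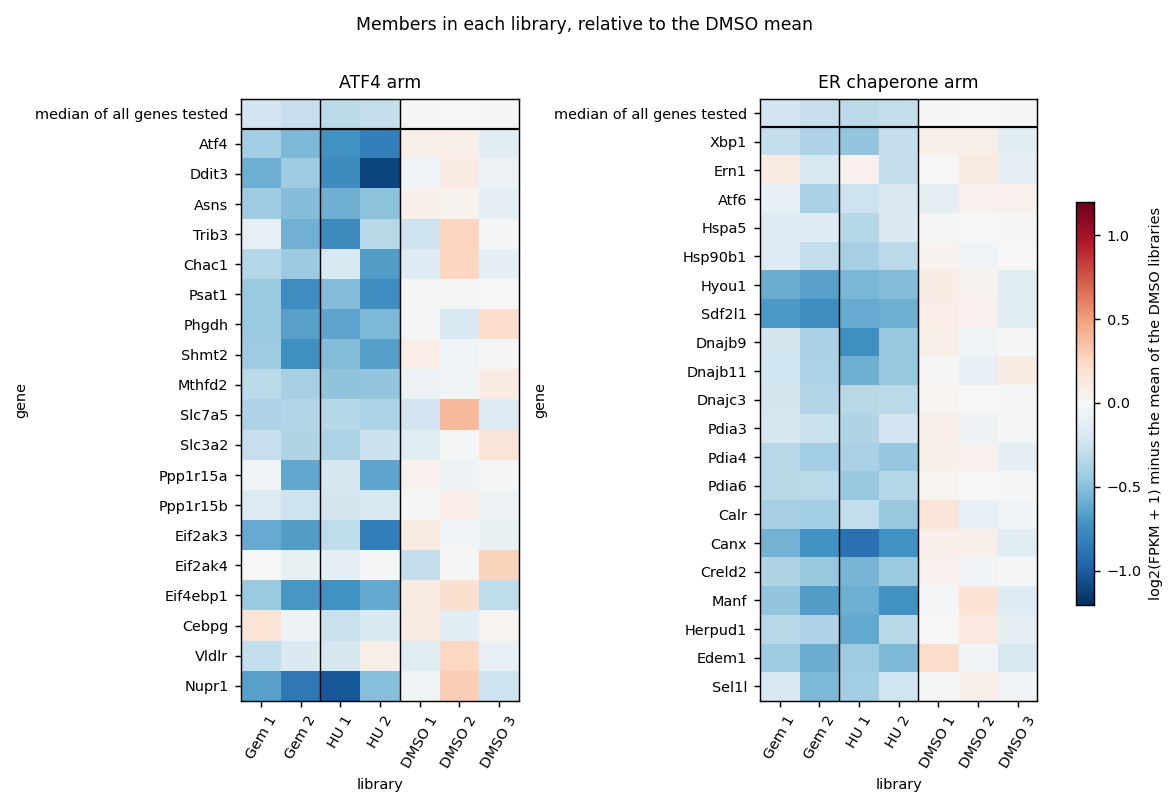
Each cell is log2(FPKM + 1) of a member in 1 library minus its mean over the 3 DMSO libraries, with Gem, HU and DMSO libraries from left to right, the 2 arms in separate panels, and the median of all 13865 genes tested in the top row. Most members are blue in the 4 drug libraries and darker than the top row. Ern1, Eif2ak4, Ppp1r15b and Cebpg are among the paler ones, as is Hspa5 except in HU 1.

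In the ATF4 arm 11 of 19 members fell in Gem and 11 of 19 in HU, against 23.2% and 35.5% of all genes. The median log2 fold change was -0.39 in Gem and -0.54 in HU, against -0.25 and -0.30 for all genes. These shares are not matched for level, as the arm's median level was 4.73 in log2 units and that of all genes 3.19. After the length and level correction the arm's median change was -0.058 in Gem and -0.021 in HU, against -0.019 and -0.023 for all genes. All 4 drug libraries lay below all 3 DMSO libraries for 14 of 19 members and above them for 0, against 42.6% and 3.76% of all genes. After scaling this held for 5 of 19, Atf4, Ddit3, Asns, Psat1 and Shmt2, against 11.1% of all genes. Then 2 of 19, Ppp1r15b and Cebpg, lay above DMSO in all 4 drug libraries, against 10.8% of all genes. The summed FPKM of the arm was 0.154% and 0.143% of the library in Gem, 0.155% and 0.158% in HU and 0.172% to 0.184% in DMSO.

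Atf4 and Ddit3 fell with both drugs as deposited. Atf4 was at 105.83 and 96.96 FPKM in Gem, at 84.52 and 79.32 in HU and at 148.47, 146.58 and 128.54 in DMSO. Both HU libraries lay below both Gem libraries, which lay below every DMSO library. Its log2 fold change was -0.47 ± 0.09 in Gem (SE, limma adjusted p = 0.0122) and -0.78 ± 0.09 in HU (adjusted p = 0.00135). After scaling it was -0.17 in Gem (limma adjusted p = 0.325) and -0.41 in HU (adjusted p = 0.0217). Ddit3, which encodes CHOP, a factor that promotes cell death under lasting stress, was at 24.02 and 26.85 FPKM in Gem, at 21.30 and 16.55 in HU and at 35.75, 39.15 and 34.85 in DMSO. The groups kept the same order as for Atf4 and did not overlap. The log2 fold change of Ddit3 was -0.51 ± 0.12 in Gem (SE, limma adjusted p = 0.0238) and -0.92 ± 0.12 in HU (adjusted p = 0.00191), and after scaling -0.21 (0.457) and -0.57 (0.0356). The Gem call of Ddit3 as deposited was lost without DMSO 1, DMSO 2, Gem 1 or Gem 2 (limma adjusted p = 0.0643, 0.0661, 0.123 and 0.0999) and with a replicate block (0.0517). After scaling and without DMSO 3 the limma adjusted p of Ddit3 in HU was 0.0579, and that of Atf4 was 0.0147. Ddit3 shares exonic bases, at most 186 of 1713 in all, with Mars1 and Gm4189 on the opposite strand and a further Ddit3 entry on its own strand. Reads of the shared bases cannot be told apart here. With the length and level correction the HU changes were -0.22 for Atf4 and -0.36 for Ddit3 (limma adjusted p = 0.148 and 0.169).

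Asns, Psat1 and Shmt2 of amino acid synthesis fell with both drugs as deposited. Asns, asparagine synthetase, a classical ATF4 target, was at 64.58 and 60.45 FPKM in Gem, at 57.46 and 61.48 in HU and at 90.68, 89.65 and 80.67 in DMSO. The Gem and HU values overlapped, and both stood below DMSO. Its log2 fold change was -0.47 ± 0.08 in Gem and -0.54 ± 0.08 in HU (SE, limma adjusted p = 0.0101 and 0.00295). Psat1, the transaminase of serine synthesis, was at 48.75 and 39.29 FPKM in Gem, at 46.14 and 39.27 in HU and at 67.55, 65.49 and 67.10 in DMSO. Its changes were -0.60 ± 0.11 and -0.64 ± 0.11 (SE, limma adjusted p = 0.0120 and 0.00475). Shmt2, the mitochondrial serine hydroxymethyltransferase, was at 79.92 and 64.63 FPKM in Gem, at 74.85 and 67.99 in HU and at 113.99, 104.27 and 106.15 in DMSO. Its changes were -0.58 ± 0.10 and -0.59 ± 0.10 (SE, limma adjusted p = 0.0109 and 0.00492). In each of these 3 genes the drug libraries were below DMSO without overlap, as deposited and scaled, but none passed limma after scaling (adjusted p from 0.159 to 0.271).

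Mthfd2, a mitochondrial folate enzyme, was at 79.14 and 74.94 FPKM in Gem, at 70.59 and 71.33 in HU and at 94.55, 97.19 and 106.43 in DMSO. It fell by 0.36 in Gem and by 0.48 in HU on the log2 scale as deposited (limma adjusted p = 0.0164 and 0.00345). Its Gem call was lost without Gem 1 or Gem 2 (limma adjusted p = 0.0556 and 0.116). After scaling its groups overlapped and its values were -0.061 and -0.11. Phgdh, the first enzyme of serine synthesis, Slc3a2, Eif4ebp1, which restrains cap-dependent translation, Eif2ak3 and the stress factor Nupr1 also fell in both drugs as deposited, by 0.32 (Slc3a2) to 0.75 (Nupr1) in Gem and by 0.32 (Slc3a2) to 0.77 (Nupr1) in HU. None of them passed after scaling.

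The remaining 8 members passed in neither drug. Ppp1r15a, which encodes the phosphatase subunit GADD34 that restores translation, was at 29.16 and 19.04 FPKM in Gem, at 25.85 and 18.84 in HU and at 30.87, 28.63 and 30.04 in DMSO. Gem 1 lay within the DMSO range and the other drug libraries lay below it, and the changes of -0.33 ± 0.19 and -0.42 ± 0.19 (SE, limma adjusted p = 0.240 and 0.119) did not pass. The ATF4 target genes Trib3, Chac1, Vldlr and Slc7a5, the constitutive phosphatase subunit Ppp1r15b, the kinase gene Eif2ak4 and the ATF4 partner Cebpg ran from -0.39 to 0.052 in Gem and from -0.55 to -0.066 in HU. Chac1, an enzyme that breaks down glutathione, was at 10.80 and 10.11 FPKM in Gem, at 12.25 and 8.44 in HU and at 12.50, 16.97 and 12.92 in DMSO, so that every drug library lay below DMSO, HU 1 only narrowly. Cebpg, at 18.53 and 15.71 FPKM in Gem, 13.48 and 14.39 in HU and 17.78, 14.81 and 16.82 in DMSO, had the only positive value in Gem.

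**Figure D2:**
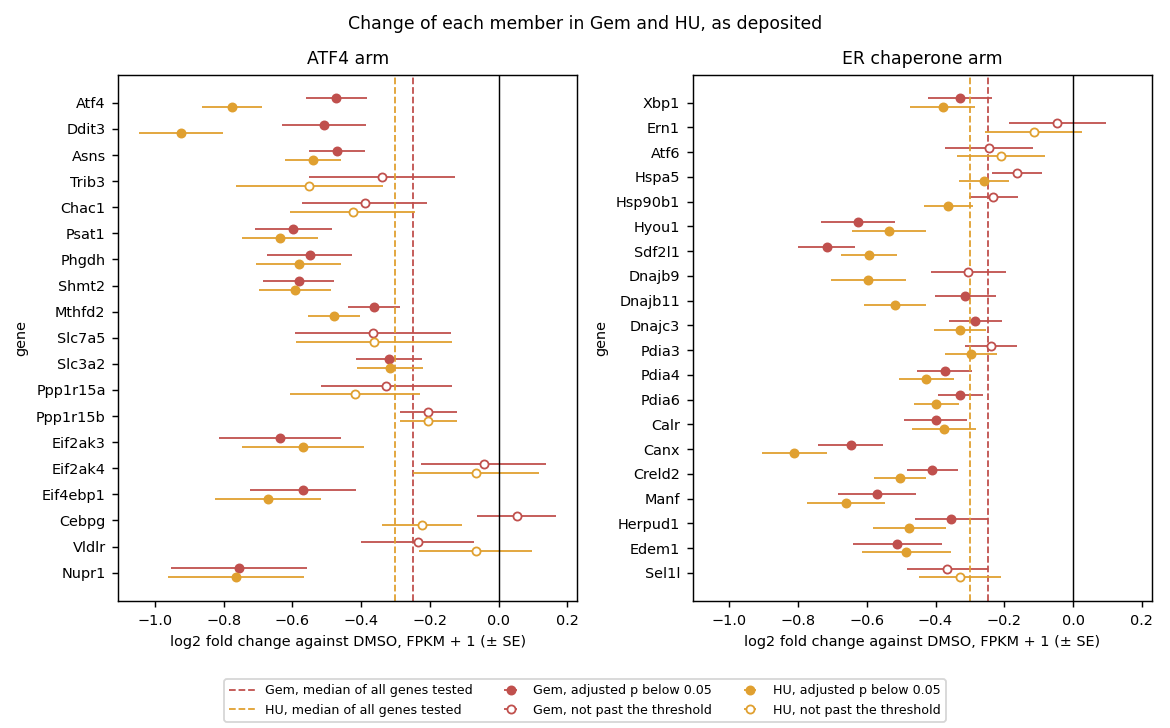
Points are log2 fold changes on the FPKM + 1 scale against DMSO with their SE (limma), Gem in red and HU in orange; filled points passed an adjusted p of 0.05 and dashed lines mark the median of all genes tested in each contrast. Atf4 (-0.78), Ddit3 (-0.92) and Canx (-0.81) in HU lie farthest left of the HU median of -0.30, and Ern1, Eif2ak4 and Cebpg lie right of it.

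In the ER chaperone arm 13 of 20 members fell in Gem and 17 of 20 in HU, against 23.2% and 35.5% of all genes. The median log2 fold change was -0.34 in Gem and -0.41 in HU, closer to the -0.25 and -0.30 of all genes than that of the ATF4 arm. The shares are not matched for level here either, as the arm's median level was 6.70 in log2 units and that of all genes 3.19. At a mean FPKM of at least 5 the arm's median minus that of all genes was -0.027 in Gem and -0.022 in HU. After the length and level correction its median change was 0.050 and 0.071, against -0.019 and -0.023 for all genes. The part of level in these shares was not tested. All 4 drug libraries lay below DMSO for 18 of 20 members as deposited, against 42.6% of all genes. After scaling they did so for 5 of 20, Hyou1, Sdf2l1, Canx, Creld2 and Manf, against 11.1% of all genes. Hspa5 alone lay above DMSO in all 4 after scaling, where 10.8% of all genes did. The arm held 0.323% and 0.318% of the FPKM in Gem, 0.328% and 0.345% in HU and 0.346% to 0.366% in DMSO.

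Among the regulators, Xbp1 was at 188.45 and 176.78 FPKM in Gem, at 165.23 and 187.60 in HU and at 239.50, 240.81 and 209.22 in DMSO. It fell as deposited by 0.33 in Gem and by 0.38 in HU on the log2 scale (limma adjusted p = 0.0409 and 0.0164), and stood at -0.025 and -0.012 after scaling. The Gem call was lost without DMSO 1, DMSO 2 or any 1 drug library, and the HU call without DMSO 1 or HU 1 (limma adjusted p from 0.0513 to 0.217). The sensor genes Ern1 and Atf6 passed in neither drug, with changes of -0.046 and -0.24 in Gem and -0.11 and -0.21 in HU.

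The arm's most abundant gene had a smaller change than the other chaperones as deposited, though not after scaling. Hspa5 was at 378.02 and 380.25 FPKM in Gem, at 334.18 and 376.12 in HU and at 419.72, 426.09 and 427.79 in DMSO. The drug libraries were all below DMSO as deposited, and after scaling all above it, at 400.1 and 419.6 in Gem and 382.49 and 419.8 in HU against 363 to 382.47 in DMSO. Its log2 fold change was -0.16 ± 0.07 in Gem (SE, limma adjusted p = 0.144) and -0.26 ± 0.07 in HU (adjusted p = 0.0275), while the values were 0.14 and 0.11 after scaling (0.364 and 0.388). In HU it was 0.38 after quantile normalization (limma adjusted p = 0.0404), the only call of a member as higher under any setting. The direction for Hspa5 therefore depended on the scaling, and the HU call as deposited was lost without DMSO 1, DMSO 2 or HU 1 (limma adjusted p = 0.0690, 0.0650 and 0.138). Hsp90b1, which encodes the ER member of the HSP90 family, and Pdia3 showed a like pattern as deposited, with -0.23 and -0.24 in Gem (limma adjusted p = 0.0519 and 0.0571) and -0.36 and -0.30 in HU (0.00723 and 0.0189), and with values of 0.071 and 0.065 in Gem and 0.0046 and 0.071 in HU after scaling.

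Canx, the membrane-bound lectin chaperone of glycoproteins, was at 208.18 and 187.24 FPKM in Gem, at 166.22 and 186.65 in HU and at 323.75, 323.38 and 283.72 in DMSO. The highest drug library lay well below the lowest DMSO library. Its log2 fold change was -0.65 ± 0.09 in Gem (SE, limma adjusted p = 0.00742) and -0.81 ± 0.09 in HU (adjusted p = 0.00144). After scaling it was -0.34 in Gem (limma adjusted p = 0.0926) and -0.44 in HU (adjusted p = 0.0177), and with the length and level correction -0.30 in both (0.183 and 0.105). Calr, its soluble counterpart calreticulin, fell less as deposited, by 0.40 in Gem and by 0.38 in HU (limma adjusted p = 0.0213 and 0.0161), and was at -0.097 and -0.0081 after scaling.

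**Figure D3:**
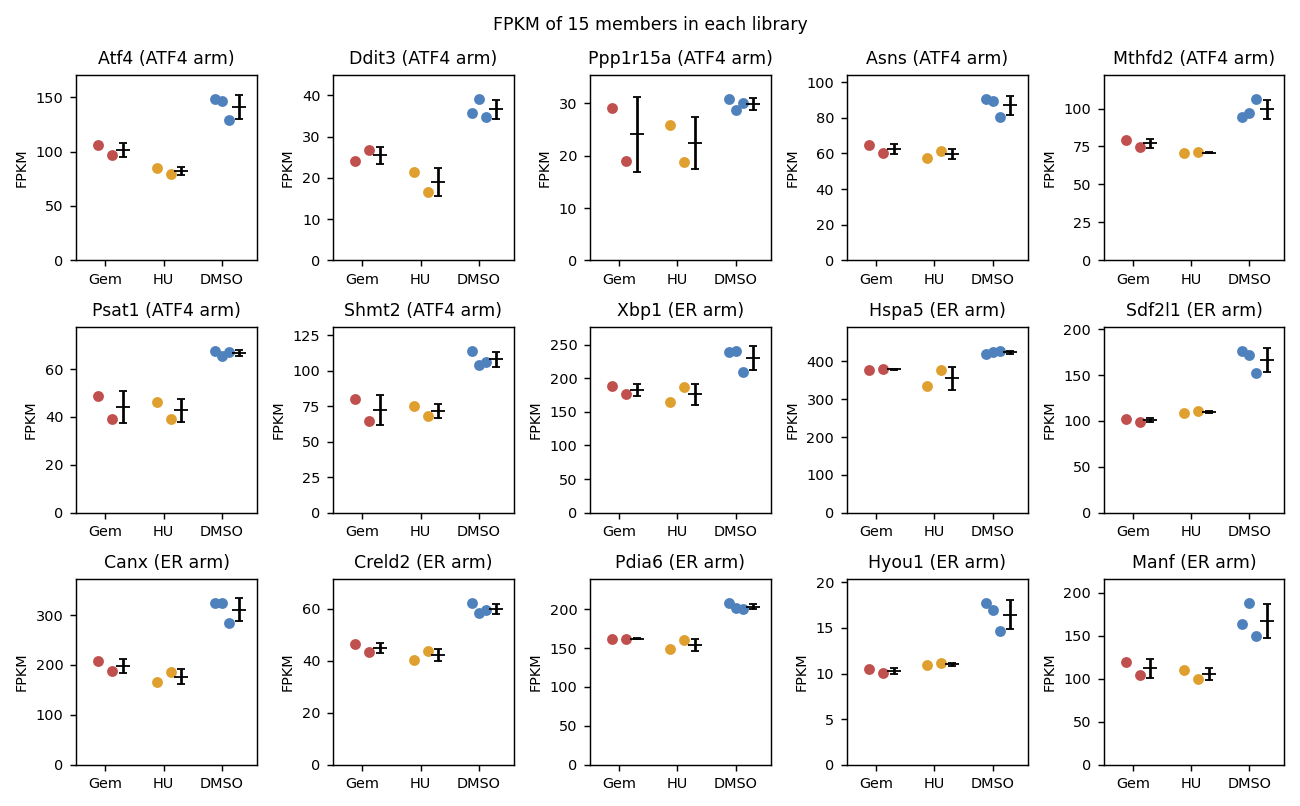
FPKM of 15 members, 7 of the ATF4 arm and 8 of the ER chaperone arm, in each library, with Gem, HU and DMSO from left to right; dots are libraries and the bar beside them is the mean ± SD (n = 2, 2 and 3), on axes that start at 0. Canx is at most 208.18 in drug libraries and at least 283.72 in DMSO, whereas Hspa5 stays between 334.18 and 427.79 throughout.

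Sdf2l1, an ER protein that works with BiP and DNAJ partners, was at 102.59 and 99.05 FPKM in Gem, at 109.03 and 110.79 in HU and at 176.32, 172.01 and 151.77 in DMSO. Its change was -0.72 ± 0.08 in Gem and -0.59 ± 0.08 in HU (SE, limma adjusted p = 0.00574 and 0.00211), and -0.42 and -0.23 after scaling (0.0514 and 0.0902). With 1108 exonic bases Sdf2l1 is the shortest member, and after the length and level correction it stood at -0.31 and 0.0020. Hyou1, a large ER relative of HSP70 that acts as nucleotide exchange factor for BiP, was at 10.51 and 10.09 FPKM in Gem, at 10.91 and 11.13 in HU and at 17.72, 16.99 and 14.72 in DMSO. Its changes were -0.63 ± 0.11 and -0.54 ± 0.11 (SE, limma adjusted p = 0.00964 and 0.00755), and -0.34 and -0.19 after scaling.

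Manf, a small secreted protein held in the ER, was at 119.50 and 104.22 FPKM in Gem, at 110.05 and 99.94 in HU and at 163.91, 187.63 and 149.27 in DMSO. Up to 326 of its 3524 exonic bases overlap those of 3 neighbouring genes, so its value is uncertain. Creld2, also induced by ER stress, was at 46.36 and 43.47 FPKM in Gem, at 40.43 and 43.64 in HU and at 62.07, 58.45 and 59.34 in DMSO. Both genes were lower in every drug library than in DMSO, with changes of -0.57 and -0.41 in Gem (limma adjusted p = 0.0140 and 0.0117) and -0.66 and -0.50 in HU (0.00455 and 0.00282), and neither passed after scaling.

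The disulfide isomerase Pdia6 was at 161.18 and 162.19 FPKM in Gem, at 148.41 and 159.84 in HU and at 207.60, 201.97 and 200.33 in DMSO. It fell as deposited by 0.33 and by 0.40 on the log2 scale (limma adjusted p = 0.0142 and 0.00386), and the Gem call was lost without DMSO 1, Gem 1 or Gem 2 (0.0554, 0.0654 and 0.0932). Its groups overlapped after scaling, at -0.026 and -0.031. Pdia4, the BiP partners Dnajb11 and Dnajc3, and the degradation factors Herpud1 and Edem1 also fell in both drugs as deposited, by 0.28 (Dnajc3) to 0.51 (Edem1) in Gem and by 0.33 (Dnajc3) to 0.52 (Dnajb11) in HU. Dnajb9, a co-chaperone that holds IRE1 inactive, was at 28.81 and 25.66 FPKM in Gem, 19.85 and 24.47 in HU and 35.51, 32.52 and 33.50 in DMSO, and passed in HU (-0.60, limma adjusted p = 0.00566) but not in Gem (-0.30, 0.0796). Sel1l, the adaptor of an ER ubiquitin ligase, passed in neither (-0.37 and -0.33, limma adjusted p = 0.0601 and 0.0620).

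Ratios of 2 members within a library do not depend on a single scaling factor per library. Quantile normalization and the length and level correction can change them, and they are given here as deposited. These pairs were picked with their values in view and are described without a test. Canx per Hspa5 was 0.551 and 0.492 in Gem, 0.497 and 0.496 in HU and 0.771, 0.759 and 0.663 in DMSO. Sdf2l1 per Hspa5 was 0.271 and 0.260 in Gem, 0.326 and 0.295 in HU and 0.420, 0.404 and 0.355 in DMSO. In both ratios every drug library lay below every DMSO library, and DMSO 3 was nearest to the drugs. Hyou1 per Hspa5 was 0.0278 and 0.0265 in Gem, 0.0326 and 0.0296 in HU and 0.0422, 0.0399 and 0.0344 in DMSO. Hsp90b1 per Hspa5 overlapped between the groups, at 0.557 and 0.507 in Gem, 0.537 and 0.502 in HU and 0.581, 0.539 and 0.555 in DMSO. Ddit3 per Atf4 also overlapped, at 0.227 and 0.277 in Gem, 0.252 and 0.209 in HU and 0.241, 0.267 and 0.271 in DMSO.

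**Figure D4:**
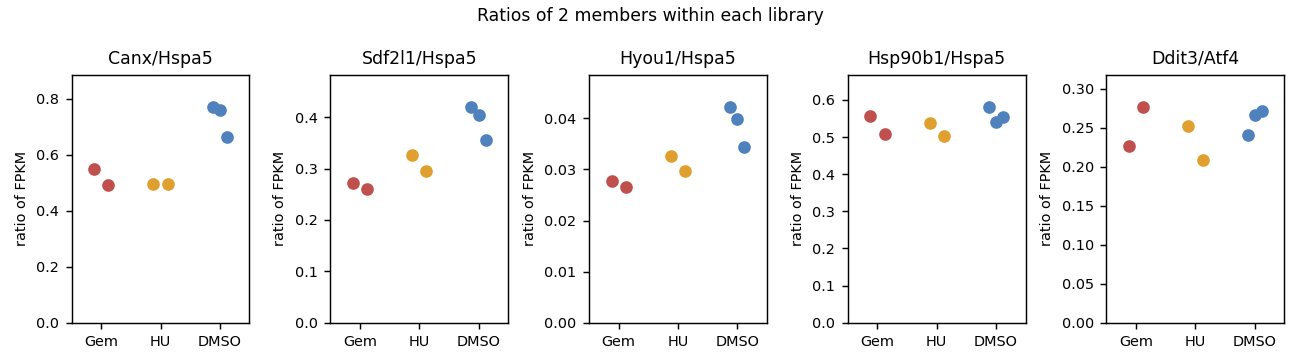
Each dot is the ratio of the FPKM of 2 members in 1 library, with Gem, HU and DMSO from left to right and axes that start at 0. Canx, Sdf2l1 and Hyou1 per Hspa5 are lower in all 4 drug libraries than in DMSO (Canx at most 0.551 against at least 0.663), while Hsp90b1 per Hspa5 and Ddit3 per Atf4 overlap.

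Gem against HU tests whether the drugs differed in these genes. In limma 0 of 39 members passed (adjusted p from 0.349 upwards). Of all genes 0.0216% were called higher in Gem and 0.0793% lower (0.0216% and 0.108% after scaling). At an unadjusted p under 0.05 (limma) stood 3 of 39 members, all higher in Gem, against 10.7% of all genes in either direction. These 3 were Ddit3 (0.42 ± 0.13), Atf4 (0.30 ± 0.10) and Dnajb9 (0.29 ± 0.12; log2, SE, limma adjusted p = 0.349, 0.349 and 0.453). After scaling their values were 0.36, 0.24 and 0.23. The larger fall of these genes in HU was thus not shown to differ from that in Gem.

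Other gene lists of these pathways are set against the 23.2% of all genes that fell in Gem and the 35.5% that fell in HU. After scaling the shares of all genes called lower were 0.469% in Gem and 5.27% in HU. With the length and level correction Eif2s2 in HU was the only call (limma) among the genes of these lists with a known length. Of 20 cytosolic aminoacyl-tRNA synthetases, many of them ATF4 targets, 16 fell in Gem and 19 in HU, and their median changes were -0.093 and -0.059 after scaling. Nars, for asparagine, changed by -0.41 in Gem and -0.40 in HU, Sars, for serine, by -0.41 and -0.60, and Farsb, a subunit of the phenylalanine enzyme, by -0.31 and -0.54 (limma adjusted p from 0.00171 to 0.0322). Of 20 tested further ATF4 targets, out of 24 listed, 4 fell in Gem (20%, below the share of all genes) and 10 in HU (50%), with scaled medians of -0.068 and -0.10. Among them Shmt1, the cytosolic serine hydroxymethyltransferase, passed in both (-0.52 and -0.68, limma adjusted p = 0.0268 and 0.00618), and Ndrg1 and Mthfd1l in HU (-0.63 and -0.62, 0.00493 and 0.00991) but not in Gem (-0.26 and -0.31, 0.126 and 0.128).

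Of 10 genes of eIF2, its exchange factor eIF2B and the other eIF2 kinases, 2 fell in Gem (20%, below the share of all genes) and 6 in HU (60%), and 1 fell in HU after scaling. Eif2s1, the alpha subunit that the stress kinases phosphorylate, was chosen after its values were seen and was at -0.32 in Gem and -0.57 in HU (limma adjusted p = 0.156 and 0.0198). The gene that passed after scaling was Eif2s2, the beta subunit of eIF2, at 42.39 and 40.17 FPKM in Gem, 32.96 and 31.09 in HU and 59.91, 60.91 and 56.88 in DMSO. Its values separated all 3 groups, and its change in HU was -0.87 ± 0.07 (SE, limma adjusted p = 0.00102), -0.51 after scaling (0.0107) and past the threshold after the length and level correction (0.0295). Eif2b1 fell in both (-0.59 and -0.64, limma adjusted p = 0.00861 and 0.00261), and Eif2s3x in HU (-0.38, 0.0119; in Gem -0.28, 0.0509).

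Of 20 translocon, signal peptidase and oligosaccharyl transferase genes 13 fell in Gem and 16 in HU as deposited. After scaling 6 fell in HU, where 5.27% of all genes did. Dad1, a transferase subunit, was at 206.93 and 196.41 FPKM in Gem, 180.17 and 173.12 in HU and 301.02, 303.93 and 276.08 in DMSO. The signal peptidase genes Spcs1 and Sec11c changed by -0.47 and -0.44 in Gem (limma adjusted p = 0.00996 and 0.00736) and by -0.83 and -0.64 in HU (0.00102 and 0.00105), and both passed in HU after scaling (0.0225 and 0.0304). With the length and level correction 0 of the 20 genes passed in HU (limma), Spcs1 and Sec11c included. The HU change of Dad1 was then -0.20 (limma adjusted p = 0.152).

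Of 11 other ER oxidoreductases 3 fell in Gem (27.3%, close to the share of all genes) and 7 in HU (63.6%), with scaled medians of 0.042 and 0.034. Prdx4, the ER peroxiredoxin, was at 22.93 and 21.83 FPKM in Gem, 20.03 and 19.46 in HU and 37.51, 36.05 and 34.29 in DMSO, and passed in HU after scaling (-0.48, limma adjusted p = 0.0133). Pdia5 changed by -0.74 and -0.71 and Tmx1 by -0.26 and -0.41, of which the Gem value of Tmx1 did not pass (limma adjusted p = 0.0590). Of 16 tested ER-associated degradation genes 7 fell in Gem and 10 in HU, with scaled medians of 0.031 and -0.0049, among them Ufd1, Selenos and Ube2j1 with -0.44, -0.50 and -0.28 in Gem and -0.47, -0.64 and -0.39 in HU. All 8 mitochondrial chaperone and protease genes fell in both drugs as deposited, and 1 in HU after scaling, Hspe1, the co-chaperonin HSP10 (-0.52, limma adjusted p = 0.0481). Grpel1 and Dnaja3, partners of the mitochondrial HSP70, changed by -0.42 and -0.47 in Gem and by -0.62 and -0.60 in HU.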

How the data were processed

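RNA was sequenced in 7 libraries of cultured mouse haematopoietic stem cells. The authors deposited FPKM for 52224 genes, used as deposited; 0 columns were unused and 0 lines lacked a gene name. Per the submitters' processing notes the tools were Bowtie 0.12.9, Cufflinks 2.1.1, HTSeq and DESeq2 with build mm10; no source used here states which tool made the values, the annotation or the use of strand. A search for the worth of 1 read left 22.0% to 23.6% of low values within 0.1 of a whole number, so the depth is unknown. Precision was judged from the spread between libraries.

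Fits used limma 3.58.1 (R 4.3.3) with a mean-variance trend on the log2 of deposited FPKM plus 1. A gene entered (13865 did) when 2 or more libraries reached an FPKM of 1. One model held the 3 groups, with 4 residual degrees of freedom. Tests were two-sided, with Benjamini-Hochberg adjustment across every gene in the fit and calls below 0.05. Because of the added 1, changes of low genes are understated. Trimmed-mean scaling left out the outer 30% of ratios and 5% of levels on either side. The length and level correction (loess, span 0.3, GENCODE M21 exonic lengths for 96.9% of tested genes) was added after the data were seen. Also tried were a smaller pseudocount (0.1), testing without a filter, a filter at a mean FPKM of 5, equal library sums, quantile normalization, no trend, models of the compared groups only, a replicate block, and leaving out each library. The method was checked on simulated data. Figures were drawn with matplotlib 3.10.9 in Python 3.11.15.

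The members and lists were chosen with earlier results of these data known. Full values are given for Atf4, Ddit3, Xbp1, Hspa5, Ppp1r15a and the 6 members of each arm with the smallest p in either drug contrast, and up to 3 genes are named per further list. Other genes were named after their values were seen.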

Additional observations from a re-analysis of the deposited data

How the results depend on the processing

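Direction and calls rested on the scaling of the libraries. In Gem against DMSO, 3421 genes, 11 ATF4 arm members and 13 ER chaperone arm members passed. These counts were 132, 0 and 0 after trimmed-mean scaling, 298, 0 and 1 after it without DMSO 3, 432, 0 and 2 at equal library sums, 67, 0 and 0 after quantile normalization, 59, 0 and 0 after the length and level correction, 1509, 4 and 5 with no filter and 2132, 4 and 5 with no trend. In HU against DMSO they were 5541, 11 and 17, and became 1389, 2 and 1, then 1340, 2 and 2, 1480, 2 and 1, 560, 0 and 1 (Hspa5, higher), and 276, 0 and 0 under the first 5 of these settings in the same order. With no filter the HU genes were 7161, of which 3882 were lower and 3279 higher, against 4922 lower and 619 higher with it. Gem against HU gave 14 genes, against 64 with no trend, 3 after the length and level correction, 2 at a mean FPKM of at least 5, 2 with no filter, 1 with a pseudocount of 0.1 and 1 with only the compared groups; its member counts were 0 throughout (limma). The cause was not tested.

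Leaving out 1 library gave 12 to 3367 genes, 0 to 9 ATF4 arm and 0 to 12 ER chaperone arm members in Gem, with the lowest values without Gem 2, 3035 to 5192, 7 to 10 and 10 to 18 in HU, and 2 to 18 genes in Gem against HU. With a replicate block the counts were 2877, 8 and 11 in Gem, 4835, 10 and 16 in HU and 2 genes in Gem against HU; same-numbered libraries correlated at -0.074 to 0.055 in their deviations, and the labels do not say that the numbers pair them.

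Some members changed sign. In Gem, after quantile normalization Xbp1, Hspa5, Ppp1r15a, Mthfd2 and Pdia6 were at 0.13, 0.27, 0.0039, 0.044 and 0.12. After the length and level correction Xbp1, Hspa5, Ppp1r15a, Mthfd2, Creld2 and Pdia6 were at 0.066, 0.19, 0.044, 0.016, 0.058 and 0.049. Hspa5 was at 0.039 with equal sums, 0.14 scaled and 0.16 scaled without DMSO 3, where Mthfd2 was at 0.0017. In HU, after quantile normalization Xbp1, Hspa5, Mthfd2 and Pdia6 were at 0.23, 0.38, 0.047 and 0.21. After the length and level correction Xbp1, Hspa5, Ppp1r15a, Mthfd2, Sdf2l1, Creld2 and Pdia6 were at 0.17, 0.27, 0.030, 0.014, 0.0020, 0.10 and 0.13. Hspa5 was at 0.083 with equal sums, 0.11 scaled and 0.13 scaled without DMSO 3. The median of the ATF4 arm minus that of all genes was below 0 in 18 of 18 settings in Gem and 17 of 18 in HU, and that of the ER chaperone arm in 16 of 18 in each. These settings are not independent. Dropping the trend, fitting only the compared groups or leaving out a library of the third group cannot change it, and the replicate block gave the value without DMSO 3. At a mean FPKM of at least 5 it was -0.12 and -0.15 in the ATF4 arm and -0.027 and -0.022 in the ER chaperone arm (Gem and HU). Depth is unknown, so the counting error of low members such as Slc7a5 cannot be given. Ppp1r15b, Hsp90b1 and Eif2ak3 share more exonic bases with other genes (up to 640, 632 and 485) than Manf, so their values carry the same limit.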

Other observations

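Other genes of protein entry into the ER, chosen after their values were seen, passed after scaling in HU. There 5.27% of all genes were called lower and 4.75% higher. After the length and level correction 0 of the 20 translocon, signal peptidase and oligosaccharyl transferase genes passed in HU (limma). Nor did any of the 9 other ER oxidoreductases with a known length. Sec61b, a subunit of the translocon channel, was at 290.86 and 273.41 FPKM in Gem, 242.03 and 223.24 in HU and 521.40, 537.89 and 399.08 in DMSO, with a scaled change of -0.68 in HU (limma adjusted p = 0.0179). Ssr2 and Ssr4, subunits of the translocon-associated complex, had scaled changes of -0.51 and -0.61 in HU (limma adjusted p = 0.0225 and 0.0383). Erp29, an ER protein of the disulfide isomerase family, was at 274.93 and 264.98 FPKM in Gem, 247.72 and 243.69 in HU and 279.96, 258.62 and 249.02 in DMSO, and its scaled change in HU was 0.27 (limma adjusted p = 0.0427). Its FPKM as deposited thus lay close in all groups while the median gene was lower in the drug libraries.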
